A study of Homo sapiens with 8 samples.

Results

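The genes described here are CANT1, RPGR, SMYD2, SUPT7L, CAPRIN2, DVL3 and PODXL, 7 of the 12047 genes that have at least 1 splicing event in the rMATS tables. Genes other than SMYD2 were taken because an intron of each changed its inclusion level in whole-cell RNA after depletion of CHERP. Each was found by its gene symbol in all 10 tables. These list retained introns (RI), exons that can be skipped (SE), pairs of exons of which a transcript holds either (MXE), and exons with more than 1 possible 3′ end (A5SS) or 5′ end (A3SS). They had 96 events in whole-cell RNA and 71 in cytoplasmic RNA. The cells were U2OS, a human osteosarcoma line, given either the control siRNA, which targets EGFP, or CHERP #2 siRNA at 20 nM and harvested at 48 h, so that every library came from transfected cells and a single siRNA sequence stood for CHERP depletion. Poly(A)-selected RNA was sequenced from whole cells and from the cytoplasm, the supernatant of a detergent lysate, with 2 libraries in each of the 4 groups. Because whole-cell intron retention chose the genes, the whole-cell values are a description with no test. How SMYD2 was chosen is not stated, so its cytoplasmic values are given in the same way, while the cytoplasmic values of the other genes were tested. These tests may not be independent of the choice, since whole-cell RNA includes cytoplasmic RNA and earlier results of these data were known.

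Intron retention leaves an intron in a polyadenylated RNA. Such RNA is often kept in the nucleus, and when it reaches the cytoplasm a stop codon within the intron can send it to nonsense-mediated decay. CHERP is a nuclear protein that binds the U2 snRNP, the particle that recognizes the branch point and, with the U2AF proteins, the 3′ splice site. CANT1 is a calcium-dependent nucleotidase of the Golgi needed for proteoglycan synthesis, RPGR is a ciliary protein mutated in retinitis pigmentosa, and SMYD2 is a lysine methyltransferase. SUPT7L is a subunit of the STAGA histone acetyltransferase complex and CAPRIN2 is an RNA-binding protein linked to Wnt signaling. DVL3 carries the Wnt signal from Frizzled receptors, and PODXL is a sialomucin of the cell surface that binds ezrin.

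The splice sites of the introns are shown first, since the results turn on which intron was kept and which 3′ site was joined. They were read from the GRCh37 genome, to which the hg19 coordinates of the files apply. Of the 3717 introns in the whole-cell RI table, 97.7% began with GT and ended with AG in that genome. Each 5′ site is given with 3 exon bases and 6 intron bases, and each 3′ site with 27 intron bases and 3 exon bases. The capitals mark the first and the last pair of bases of the intron.
CANT1 5′ site: aaaGTaagc
CANT1 3′ site: tcctctcctccctccctggctgtgcAGgtc
RPGR 5′ site: tagGTaatg
RPGR 3′ site: atgattttaaatgtgatcgcttgtcAGaga
SMYD2 intron 10, 5′ site: cagGTgatt
SMYD2 intron 10, 3′ site: ggcctgttgtctcttctcttgttctAGtaa
SMYD2 intron 9, 5′ site: aatATatcc
SMYD2 intron 9, 3′ site: gtggccctttccttgactccacagcACccc
SUPT7L shared 5′ site: aagGTgagt
SUPT7L proximal 3′ site: cagttacatttctcttaatttatttAGgga
SUPT7L distal 3′ site: cttctcttcttattccaaaatgttgAGata
CAPRIN2 shared 5′ site: ctgGTaaga
CAPRIN2 nearest 3′ site: ttggaccctaaaatcgtttttcttaAGcag
CAPRIN2 middle 3′ site: gaccctaaaatcgtttttcttaagcAGcaa
CAPRIN2 farthest 3′ site: gcaatggtagccttgccttttacccAGcac
DVL3 5′ site: cagGTgggg
DVL3 3′ site: ggtggggaacgactgtgggccccacAGgtt
PODXL 5′ site: tggGTaact
PODXL 3′ site: aaccttaatctcagtggcttcttccAGgca

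The CANT1 intron spans 195 nt at chr17:76993727-76993921 on the minus strand and lies in the 5′UTR, as intron 2 of 4 in the reference transcript. The RPGR intron spans 615 nt at chrX:38146499-38147113 on the minus strand and is intron 14 of 14, between coding exons. Its length is a multiple of 3, and no stop codon in frame was found in it. The SMYD2 intron spans 2007 nt at chr1:214505536-214507542 on the plus strand and is intron 10 of 11. A stop codon in frame ended at its base 4. The DVL3 intron spans 181 nt at chr3:183882720-183882900 on the plus strand, as intron 5 of 14, with a stop in frame ending at base 55. The PODXL intron spans 336 nt at chr7:131193788-131194123 on the minus strand, as intron 4 of 8, with a stop in frame ending at base 48. The SUPT7L intron that joins the proximal site spans 577 nt at chr2:27884469-27885045 on the minus strand and lies in the 5′UTR of the annotated transcript that uses it. The CAPRIN2 intron that joins the nearest site spans 1363 nt at chr12:30868079-30869441 on the minus strand, is intron 12 of 15 in an annotated coding transcript, and has a stop in frame ending at base 35.

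The introns had little in common in length or base composition. Their lengths ran from 181 to 2007 nt, against a median of 259 nt over the 3717 introns. GC content was 66.3% in DVL3, 55.4% in PODXL and 52.3% in CANT1, and it was 33.3% in CAPRIN2, 37.4% in SUPT7L and 38.9% in RPGR, against a median of 55.8%. In the 20 bases before the final AG, 45% were pyrimidines in DVL3, a share at percentile 1.55 of all introns of the table. The share was 60% in RPGR, 70% in PODXL and CAPRIN2, 75% in SUPT7L, 80% in CANT1 and 85% in SMYD2, against a median of 75%. The letters CTNAC, searched on the transcribed strand in the last 60 bases, were found in the CANT1, SMYD2 and SUPT7L introns and in 29.1% of all introns. SMYD2 intron 9 begins with AT and ends with AC, the ends of a class of introns that the minor spliceosome can remove.

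Reads counted on the events numbered 29409956 to 35664568 per library in whole cells and 5370756 to 6580099 in the cytoplasm. A spliced read could fall on 144 positions in whole cells and on 73 in the cytoplasm, a sign of another read length, so the fractions are set side by side and not subtracted. CHERP itself was checked first. Its events held 103 and 77 reads in the whole-cell EGFP libraries against 3 and 10 in the CHERP libraries, and 31 and 21 against 3 and 4 in the cytoplasm. The 2 whole-cell EGFP libraries differed more from each other than the 2 whole-cell CHERP libraries, with a chi-square of 6.59 per SE event against 2.59. The cytoplasmic pairs had 1.61 (EGFP) and 1.66 (CHERP) at fewer reads. A chi-square depends on read numbers, so the fractions are not compared in it. Of 7 mesenchymal markers, 4 had events in whole cells, and their summed level was 244 to 247 in the EGFP and 284 to 295 in the CHERP libraries, in scaled reads per position. The epithelial markers summed to 0.00892 to 0.0725, and none of 3 blood markers had an event.

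In whole-cell RNA the main introns of CANT1, RPGR and SMYD2 were kept more often in the CHERP libraries. The inclusion level is the length-corrected share of the retained form. For CANT1 it was 0.375 and 0.484 in the EGFP libraries and 0.753 and 0.646 in the CHERP libraries, from 99 to 147 reads per library. The mean went from 0.430 ± 0.077 to 0.699 ± 0.076 (SD, n = 2). Both forms moved, with spliced reads of 41 and 34 in EGFP and 18 and 24 in CHERP libraries. For RPGR the level was 0.0344 and 0.0453 in the EGFP libraries and 0.197 and 0.394 in the CHERP libraries. The CHERP libraries of RPGR lay far apart, at a mean of 0.296 ± 0.14 against 0.0398 ± 0.0077 (SD, n = 2), and both were above the EGFP libraries. For SMYD2 intron 10 the level was 0.0410 and 0.0466 in the EGFP libraries and 0.160 and 0.0987 in the CHERP libraries, from 282 to 438 reads per library.

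The inclusion levels of the main introns of SUPT7L, CAPRIN2, DVL3 and PODXL were lower in the CHERP libraries. For SUPT7L, joined to the proximal 3′ site, the level was 0.867 and 0.928 in the EGFP libraries and 0.616 and 0.646 in the CHERP libraries, although its retained form held similar read numbers, as given with its junctions. For CAPRIN2, joined to the nearest site, it was 0.851 and 0.780 in the EGFP libraries against 0.371 and 0.445 in the CHERP libraries. The difference was -0.41, or -0.10 as a share of reads without division by length, with spliced reads of 4 and 8 in EGFP and 27 and 25 in CHERP libraries. For DVL3 the level was 0.253 and 0.399 in the EGFP libraries and 0.0954 and 0.126 in the CHERP libraries. For PODXL it was 0.201 and 0.433 in the EGFP libraries and 0.0789 and 0.0761 in the CHERP libraries. The EGFP libraries of PODXL and DVL3 lay wider apart than their CHERP libraries. The groups did not overlap for any of the 7 main introns. The choice of genes and introns favored this in advance, so it is no test. Genes other than SMYD2 were taken for a change of an intron in whole cells. The main intron of every gene was its RI event with the smallest p in the whole-cell fit. Among all whole-cell RI events averaging 20 reads or more in a library, 40.2% did not overlap.

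**Figure D1:**
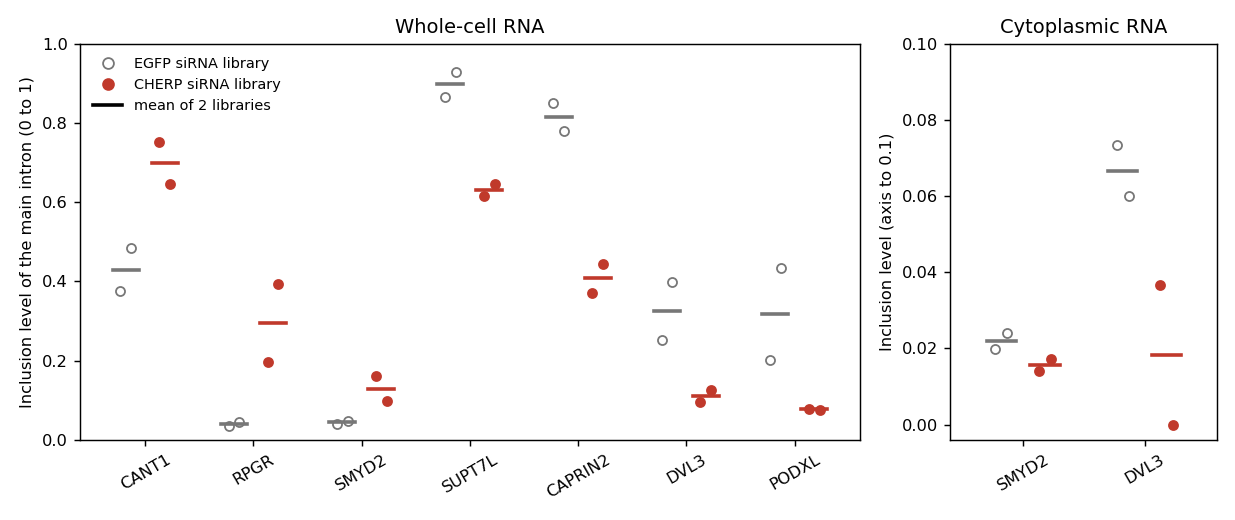
Inclusion level of the main intron of each gene, with whole-cell RNA on the left (axis from 0 to 1) and cytoplasmic RNA on the right (axis to 0.1). Open points are the 2 EGFP siRNA libraries, filled points the 2 CHERP siRNA libraries and bars their means. In whole cells CANT1, RPGR and SMYD2 lie higher in CHERP libraries and the other 4 genes lower, and in the cytoplasm both introns lie under 0.08.

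In SUPT7L and CAPRIN2 several RI events shared a 5′ splice site and differed in the 3′ site, so the reads of each junction were compared. In SUPT7L the proximal site, 577 nt from the 5′ site, held 13 and 9 spliced reads in the EGFP libraries and 60 and 62 in the CHERP libraries. The distal site, 790 nt away, held 69 and 84 reads in the EGFP and 84 and 85 in the CHERP libraries. The proximal site thus took 15.9% and 9.68% of these spliced reads in the EGFP libraries and 41.7% and 42.2% in the CHERP libraries. The retained form itself held similar read numbers, with 425 and 583 inclusion reads in EGFP and 481 and 566 in CHERP libraries. The RI event that pairs the same retained form with the distal site had levels of 0.509 and 0.545 in the EGFP libraries and 0.508 and 0.544 in the CHERP libraries. The 2 RI events of SUPT7L therefore gave different answers from overlapping reads. The same junctions formed an A3SS event, in which use of the proximal site had a level of 0.233 and 0.272 in EGFP and 0.405 and 0.422 in CHERP libraries.

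In CAPRIN2 the 3 sites lay 1363, 1366 and 1426 nt from the 5′ site, the nearest and the middle 1 a tandem pair separated by the bases cag. Spliced reads at the nearest site were 4 and 8 in the EGFP and 27 and 25 in the CHERP libraries. At the middle site they were 23 and 16 against 41 and 22, and at the farthest 7 and 1 against 6 and 13. The groups did not overlap at the nearest site and overlapped at the others. The share of the nearest site was 11.8% and 32.0% in the EGFP libraries and 36.5% and 41.7% in the CHERP libraries. Inclusion reads of the retained form were 239 and 296 in the EGFP libraries and 167 and 210 in the CHERP libraries at the nearest site. In CAPRIN2, unlike SUPT7L, the retained form had fewer reads and the form spliced to the nearest site had more.

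**Figure D2:**
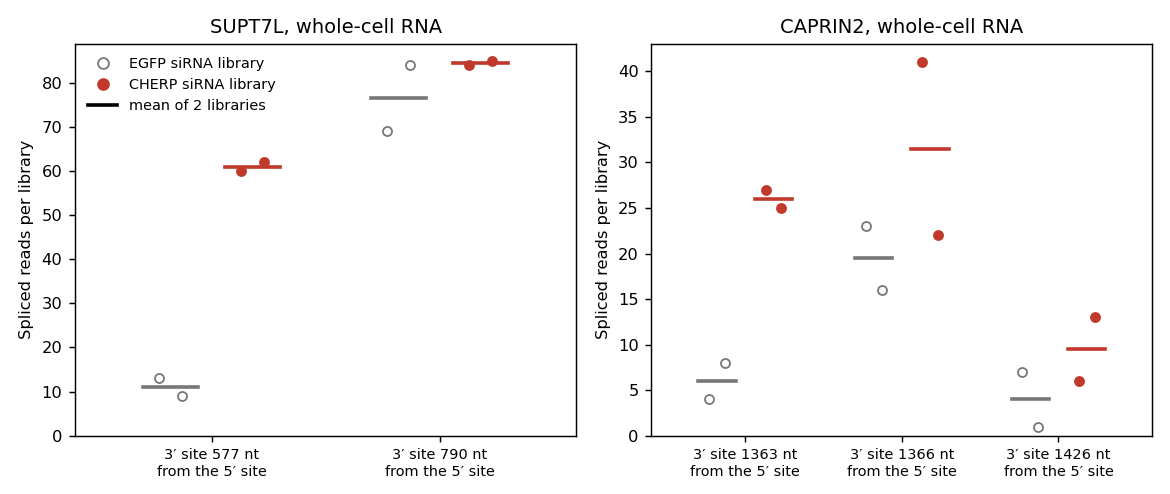
Spliced reads per library that join each 3′ splice site to the shared 5′ site, for SUPT7L (left) and CAPRIN2 (right) in whole-cell RNA, with bars for the mean of 2 libraries. The SUPT7L site 577 nt away goes from 13 and 9 reads to 60 and 62, and the site 790 nt away stays between 69 and 85.

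The other CAPRIN2 events of the same retained form also had lower levels in the CHERP libraries, without overlap, and share most of their reads with the main event. Joined to the middle site, the level was 0.498 and 0.638 in the EGFP and 0.285 and 0.477 in the CHERP libraries. Joined to the farthest site, it was 0.788 and 0.968 against 0.779 and 0.640. Introns elsewhere in CAPRIN2 and SMYD2 overlapped between the siRNAs. A further CAPRIN2 intron, 1585 nt at chr12:30872160-30873744, had levels of 0.0921 and 0.270 in the EGFP libraries and 0.262 and 0.273 in the CHERP libraries, and the groups overlapped. Its inclusion reads were 39 and 80 in the EGFP and 111 and 117 in the CHERP libraries, while those of the main intron were fewer in CHERP libraries. SMYD2 intron 9, 947 nt at chr1:214504414-214505360, is separated from intron 10 by a single exon. Its levels were 0.0575 and 0.0854 in the EGFP libraries and 0.0658 and 0.0953 in the CHERP libraries. The AT-AC intron of SMYD2 thus overlapped between the siRNAs where the GT-AG intron beside it did not. The GT-AG intron was picked as the main intron from these same whole-cell values, so the contrast is a description.

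In cytoplasmic RNA only DVL3, with 1 event, and SMYD2, with 2, had RI events listed. A difference in cytoplasmic DVL3 retention did not pass the test. The level was 0.0735 and 0.0600 in the EGFP libraries and 0.0366 and 0 in the CHERP libraries, from 33 to 60 reads per library. The library at 0 had 0 of 43 reads on the retained form, which allows up to 6.98% of reads or a level of up to 0.0197. The quasi-binomial test gave an adjusted p of 0.369 for the difference of -0.048 (Benjamini-Hochberg over all RI events), in a table in which 2.71% of 1696 events passed. The means lay on the same side as in whole cells.

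SMYD2 intron 10 had cytoplasmic levels of 0.020 and 0.024 in the EGFP libraries and 0.0142 and 0.0172 in the CHERP libraries. The share of reads on the retained form was 36.7% and 41.2% in the EGFP libraries (95% Wilson intervals 27.9 to 46.6% and 30.3 to 53.0%) and 29.0% and 33.3% in the CHERP libraries (20.8 to 38.9% and 22.2 to 46.6%). These intervals of single libraries overlap, which does not test the difference between the siRNAs. Neither that cytoplasmic difference nor the difference between the fractions was tested. SMYD2 intron 9 had levels of 0.00657 and 0.0106 in the EGFP libraries and 0.0104 and 0.00607 in the CHERP libraries, which overlapped. All 3 cytoplasmic introns had lower levels than in whole cells in every group, as did the median intron of the tables, over the introns each lists, at 0.127 in whole cells and 0.0471 in the cytoplasm for EGFP libraries.

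Cassette exons of CANT1 and PODXL had lower cytoplasmic inclusion levels in CHERP libraries, in calls that depended on how the spread was estimated. Of the 67 tested cytoplasmic events of the 6 genes, 3 passed the quasi-binomial test and all 3 were lower in CHERP libraries, while 0.792% of the 43559 events of all types and 0.705% of the SE events passed. A CANT1 exon of 139 nt, chr17:76994230-76994368, lies in the 5′UTR directly upstream of the exon that borders the main intron. Its cytoplasmic level was 0.359 and 0.437 in the EGFP libraries and 0.0325 and 0.0169 in the CHERP libraries, a difference of -0.37 (quasi-binomial, adjusted p = 7.98e-10). The reads that skip it numbered 16 and 12 in the EGFP and 41 and 40 in the CHERP libraries. A CANT1 exon of 171 nt, chr17:76996182-76996352, also in the 5′UTR, had levels of 0.207 and 0.354 in the EGFP libraries and 0.0486 and 0.0219 in the CHERP libraries (quasi-binomial, adjusted p = 7.33e-05). Both CANT1 events use the same skipping reads, so they are not independent.

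The PODXL exon of 96 nt, chr7:131194995-131195090, is coding exon 3 of 9 and lies upstream of the main PODXL intron, with 1 exon between. Its cytoplasmic level was 0.254 and 0.200 in the EGFP libraries and 0.0820 and 0.0581 in the CHERP libraries (quasi-binomial, adjusted p = 0.0196). The same events had whole-cell levels on the same side. Another whole-cell event of the 171 nt CANT1 exon, with a different neighbor, went the other way. It was at 0.651 and 0.667 in the EGFP and 0.733 and 0.696 in the CHERP libraries, with 7 and 6 reads in the latter. The CANT1 exon of 139 nt was at 0.445 and 0.571 in the whole-cell EGFP libraries and at 0.0418 and 0.0484 in the CHERP libraries. The PODXL exon was at 0.265 and 0.457 against 0.186 and 0.169. These calls rest on a spread shared across events. With the spread moderated over all events, as the test was first set out, none of the 3 passed (adjusted p = 0.608), nor did any without either CHERP library (adjusted p = 0.805 and 0.751). Without EGFP library 1 the PODXL call was lost (adjusted p = 0.633), and without EGFP library 2 those of PODXL (0.169) and of the 171 nt CANT1 exon (0.218).

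**Figure D3:**
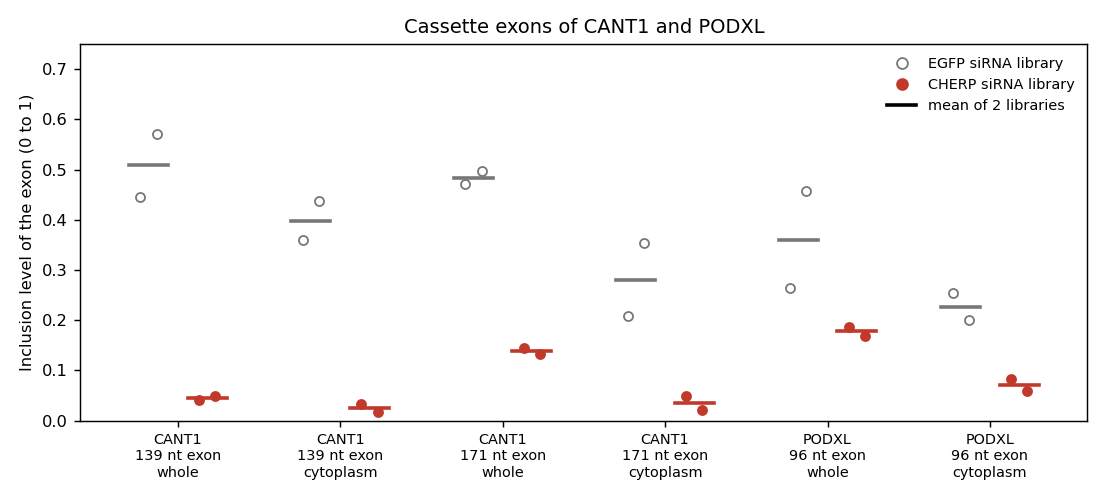
Inclusion level of the CANT1 exons of 139 and 171 nt and of the PODXL exon of 96 nt in whole-cell and cytoplasmic RNA, by library, with bars for the mean of 2 libraries. CHERP siRNA libraries lie below the EGFP siRNA libraries for every event shown in both fractions, and the whole-cell values were not tested.

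No event of DVL3, RPGR, SUPT7L or CAPRIN2 passed the quasi-binomial test in the cytoplasm, and 3 of their 48 events had an unadjusted p under 0.05. Of the 66 tested events other than RI, 18 averaged 20 reads or more in a library. A second CANT1 event of the 139 nt exon, with the 171 nt exon as its neighbor, had cytoplasmic levels of 0.524 and 0.408 against 0.256 and 0.103 (quasi-binomial, adjusted p = 0.646).

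Among the other whole-cell events, the exons of CAPRIN2 and RPGR showed wide differences. A CAPRIN2 exon of 147 nt, chr12:30872013-30872159, which borders the 1585 nt intron, had levels of 0.539 and 0.315 in the EGFP libraries and 0.867 and 0.834 in the CHERP libraries. The longer CAPRIN2 exon of 1837 nt that keeps that intron had levels of 0.243 and 0.142 against 0.648 and 0.647. Both CAPRIN2 events share their skipping reads, 22 and 56 in EGFP and 8 and 8 in CHERP libraries. In the cytoplasm, the 147 nt exon had levels of 0.639 and 0.537 against 0.590 and 0.713, and the groups overlapped. The RPGR exon of 63 nt, chrX:38180280-38180342, coding exon 4 of 15, had 5 and 9 skipping reads in the whole-cell EGFP libraries and 0 of 12 and 0 of 17 in the CHERP libraries, which allows up to 25% and 17.6% of reads, or skipping levels of up to 0.264 and 0.202. Its level was 0.690 and 0.659 against 1. In the cytoplasm it was 0.682 and 0.843 against 1, with 7 and 8 reads in the CHERP libraries.

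The RPGR exon of 181 nt, chrX:38147114-38147294, borders the retained RPGR intron. In 1 whole-cell event its levels were 0.423 and 0.402 in the EGFP libraries and 0.238 and 0.276 in the CHERP libraries. In another event of the same exon, with a different neighbor, they were 0.979 and 1 against 1 and 0.896, which overlapped. In SMYD2 a junction that leaves out the exons on both sides of intron 9 and joins the exon after intron 10 held 0 of 463 and 0 of 516 reads in the EGFP libraries, which allows up to 0.648% and 0.581% of reads, or junction levels of up to 0.132 and 0.121. It held 3 and 6 reads in the CHERP libraries, where the level of the other form was 0.892 and 0.793. A count of 3 is itself the floor, so no difference is read from this junction. A SMYD2 exon of 64 nt was at 0.940 and 0.973 in the EGFP and 0.929 and 0.922 in the CHERP libraries. A SUPT7L pair of mutually exclusive exons had levels of 0.308 and 0.355 for its 325 nt exon in the EGFP libraries against 0.366 and 0.462 in the CHERP libraries. A DVL3 exon of 88 nt, annotated in a transcript subject to nonsense-mediated decay, had 2 and 1 inclusion reads in the EGFP libraries and 0 of 51 and 0 of 50 in the CHERP libraries, which allows up to 5.88% and 6.0% of reads, or levels of up to 0.0352 and 0.0359. Over all SE events of the 7 genes in whole cells averaging 20 reads or more, 26 of 53 did not overlap between the siRNAs, and 26.9% of all such events did not. Many of the 53 share exons and reads, and the genes were chosen from this contrast.

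The cytoplasmic abundance of DVL3 rose and that of CAPRIN2 fell, while the other 4 tested genes did not pass. Abundance is the sum of reads per effective length over the SE, A5SS and A3SS events of a gene, scaled by median ratios, and differences are on the log2(value + 0.01) scale. In bulk RNA, fewer cells that express a gene and less RNA per cell cannot be told apart. DVL3 was at 3.63 and 3.13 in the EGFP libraries and 4.45 and 4.15 in the CHERP libraries, a log2 change of 0.35 ± 0.10 (SE; limma, adjusted p = 0.0153). CAPRIN2 was at 1.74 and 1.67 in the EGFP libraries and 1.12 and 1.17 in the CHERP libraries, a change of -0.58 ± 0.13 (SE; limma, adjusted p = 0.00351). Among all 7293 genes, 48.3% passed, 25.8% higher and 22.5% lower, so 2 of 6 is not above the background. The DVL3 call was lost without EGFP library 2 (limma, adjusted p = 0.103) and under scaling by the total (0.0893), which moved the median of all genes by -0.12.

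RPGR was at 0.553 and 0.761 in the cytoplasmic EGFP libraries and 0.369 and 0.547 in the CHERP libraries, and did not pass (limma, adjusted p = 0.0958). It passed without EGFP library 1 (0.0391), without CHERP library 2 (0.00927) and under scaling by the total (0.0468). PODXL was at 0.619 and 0.651 against 0.783 and 0.770 (limma, adjusted p = 0.187). In both fractions its sum rests on 1 SE event, that of the 96 nt exon, with 56 to 70 reads per cytoplasmic library. SUPT7L was at 0.589 and 0.671 against 0.800 and 0.731, with an adjusted p of 0.215 in the limma fit. CANT1 was at 2.08 and 1.90 against 2.07 and 2.28, so its groups overlapped (limma, adjusted p = 0.380). SMYD2, not tested, was at 0.609 and 0.552 against 0.397 and 0.427.

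In whole cells CANT1, RPGR and SMYD2, whose main introns were kept more, had lower abundance sums in the CHERP libraries. RPGR was at 5.47 and 6.86 in the EGFP libraries and 3.18 and 3.31 in the CHERP libraries, a log2 change of -0.92. CANT1 was at 1.84 and 1.23 against 1.08 and 1.01, and SMYD2 at 2.98 and 3.51 against 2.69 and 2.52. None of these 3 overlapped between the siRNAs. Without EGFP library 1 the CANT1 log2 change went from -0.52 to -0.25, and without EGFP library 2 that of SMYD2 went from -0.31 to -0.19. DVL3 was at 1.58 and 1.44 against 1.99 and 1.65, and SUPT7L at 6.05 and 7.24 against 7.54 and 7.62, both without overlap. The DVL3 log2 change of 0.26 was 0.15 without events that hold a retained intron, 0.14 without CHERP library 1 and 0.40 without CHERP library 2. The SUPT7L change of 0.20 was 0.058 without EGFP library 1 and 0.33 without EGFP library 2. The siRNA groups did not overlap for 70.1% of all 9660 genes. PODXL and CAPRIN2 overlapped, and the sign of their log2 changes of 0.14 and -0.018 rested on single libraries. Leaving out 1 library gave -0.11 (without EGFP library 1) to 0.38 (without EGFP library 2) for PODXL and -0.14 to 0.097, without the same libraries, for CAPRIN2. CAPRIN2 was thus lower in the cytoplasm and overlapped in whole cells, a difference between fractions that was not tested. The sums count reads within introns where an event holds a retained intron. They also add up events that share exons, so a change in exon inclusion can move them. The CANT1 event of the 139 nt exon beside the 171 nt exon held 58 and 59 reads in EGFP and 11 and 9 in CHERP libraries. The event of its 124 nt exon held 59 and 43 against 49 and 55. The part of the CANT1 change that comes from exon inclusion was not tested.

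**Figure D4:**
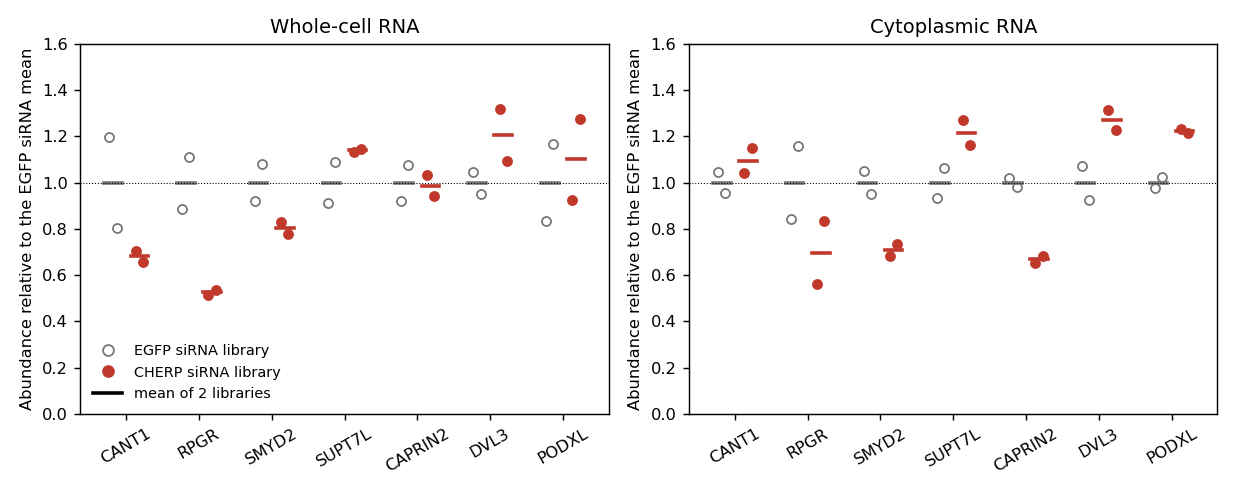
Abundance of the 7 genes by library, divided by the mean of the EGFP siRNA libraries of the same fraction, with the dotted line at 1. In the CHERP siRNA libraries RPGR, CANT1 and SMYD2 lie below 1 in whole cells, and in the cytoplasm CAPRIN2, SMYD2 and RPGR lie below 1 and the other 4 genes above it.

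The deposited cytoplasmic expression table lists 6757 genes, among them 3 of the 7, DVL3, RPGR and CANT1. It gives a mean in each of 2 columns whose siRNA is not named. The number listed is close to the total of increased and decreased transcripts that the paper reports at its FDR threshold. Listing may thus stand for a call by the authors. RPGR and CANT1 are listed, though neither passed the limma fit here, which used summed event reads. CHERP itself had authors' means of 209 and 1685. In the column in which CHERP was lower, the authors' mean was 2378 for DVL3, 211 for RPGR and 3396 for CANT1. In the column in which CHERP was higher, it was 1751 for DVL3, 349 for RPGR and 2887 for CANT1. These are means over libraries with no spread.

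Partners and relatives of the 7 genes were counted in the cytoplasm. Of 76 genes on 7 lists, 44 could be tested for abundance, of which 12 rose and 13 fell in the limma fit, in a table in which 25.8% of genes rose and 22.5% fell. Their median log2 change was -5.72e-05 and that of all genes 0.014. Only 2 RI events were listed for them, and neither passed the quasi-binomial test or had an unadjusted p under 0.05.

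Of the Dishevelled and Wnt receptor list, 7 genes were tested, 2 rose and 2 fell. DVL1, a paralog of DVL3, rose by 0.37 on the log2 scale, while DVL2, the other paralog, fell by 0.70. The kinase CSNK1E rose by 0.31, and CTNNB1, which encodes β-catenin, fell by 0.40. Of the SAGA/STAGA subunits, 11 were tested, 3 rose and 5 fell. TADA3 had a log2 change of -1.89 (limma, adjusted p = 4.53e-06), TAF12 of -1.02, ATXN7 of -0.94, ATXN7L3 of -0.34 and ENY2 of -0.26. The acetyltransferase KAT2A rose by 0.77, TAF9 by 0.42 and TAF10 by 0.34.

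Of 8 genes of the Caprin and G3BP list, 3 rose and 2 fell. FMR1, an RNA-binding protein, fell by 2.11 (limma, adjusted p = 3.65e-06), and its relative FXR1 fell by 0.63. CAPRIN1, the paralog of CAPRIN2, rose by 0.57, and the stress granule proteins G3BP2 and UBAP2L rose by 0.67 and 0.51. Of the podocalyxin list, 5 genes were tested: MSN, an actin linker, rose by 0.48 and CLIC1 by 0.33, while the linker EZR fell by 0.42 and the scaffold SLC9A3R1 fell by 0.68. Of 4 nucleotidase and related genes, ENTPD6 rose by 0.99 and ENTPD7 by 0.78, and XYLT2, a xylosyltransferase of proteoglycan synthesis, fell by 0.39. Of 5 genes of the SMYD list, the chaperone HSP90AB1 fell by 0.46 and the other 4 did not pass. None of the 4 tested RPGR partners passed or had an unadjusted p under 0.05 in the limma fit.

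For the main introns listed in both fractions, the RI event of another gene with the nearest levels over the 8 libraries was sought. For SMYD2 intron 10 it was an intron of PICK1, chr22:38469831-38470313, at a Euclidean distance of 0.049 among 934 introns compared. Its levels were 0.0529 and 0.0211 in the whole-cell EGFP libraries and 0.187 and 0.12 in the CHERP libraries. In the cytoplasm the PICK1 intron was at 0.0172 and 0.0113 against 0.0283 and 0.00897, and the groups overlapped. For DVL3 it was an intron of PRMT2, chr21:48080875-48081711, at a distance of 0.166 among 935 introns. The PRMT2 levels were 0.135 and 0.468 in the whole-cell EGFP libraries and 0.128 and 0.167 in the CHERP libraries, which overlapped. In the cytoplasm they were 0.0473 and 0.0805 against 0.0232 and 0.0685, which also overlapped. The DVL3 intron overlapped in neither fraction, but its choice favored this in advance in whole cells and its cytoplasmic difference did not pass.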

How the data were processed

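RNA was measured in 8 libraries of U2OS cells. Per the labels and methods, the authors aligned reads to hg19 with STAR 2.5.2b, used RSEM 1.2.25 with GENCODE 19 for expression, and ran rMATS, whose version is not given in the sources used here. The deposited rMATS tables give inclusion and skipping reads of 2 libraries in 1 cell without replicate numbers, so libraries 1 and 2 are places in that cell. The authors' inclusion levels, 20 columns in all, were not used, nor were the columns of the authors' comparisons, which hold p-values, false discovery rates, level differences, fold changes and posterior probabilities. The deposited expression table holds the authors' means over libraries of counts normalized with EBSeq.

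Inclusion levels were computed as (I/lI)/(I/lI + S/lS) from the reads and effective lengths of both forms. A quasi-binomial model was fitted to each whole table, with a dispersion trend on log mean reads from limma 3.58.1 in R 4.3.3, a floor of 1 and Benjamini-Hochberg adjustment at 0.05. Moderation over all events had been set out, but on simulated data it recovered no change, because events with a single form in a group have no spread. The trend was therefore taken from events with both forms in both groups. This change was made after a first fit of the data, so 2 versions were run, and the first is among the alternatives. All simulated events had the same spread setting, so the simulation cannot decide which version suits the data. In the main test the moderation left an event's own spread without weight. For abundance, limma was run on log2(value + 0.01), keeping genes that averaged 20 reads or more in a library. Main introns had the smallest p in the whole-cell fit. Other whole-cell events named were up to 2 per gene with the largest difference among those with 20 reads and no overlap, and in the cytoplasm those that passed. Partners that passed were named. The members and lists were chosen with earlier results of these data known. Annotation was GENCODE 44 lifted to GRCh37. How the cultures of replicate libraries were separated is not given in the sources used here, so p-values apply to these samples only. Those of the main quasi-binomial test weigh read counts against a spread pooled over events, not the spread between an event's own libraries. Floors for a count of 0, taken as 3 reads, cover counting error only. Alternatives are listed at the end.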

Additional observations from a re-analysis of the deposited data

Results flagged for a closer look

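For SMYD2 intron 10 the sign of the difference between the siRNAs was not the same in the 2 fractions. The difference in level, CHERP minus EGFP, was 0.086 in whole-cell RNA and -0.0063 in cytoplasmic RNA. Both CHERP libraries lay above both EGFP libraries in whole cells and below both in the cytoplasm. The cytoplasmic read shares had 95% Wilson intervals of 27.9 to 46.6% and 30.3 to 53.0% in the EGFP libraries. In the CHERP libraries they were 20.8 to 38.9% and 22.2 to 46.6%. The intervals are wide and overlap, which does not test the cytoplasmic difference between the siRNAs. The difference between the fractions was not tested.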

How the results depend on the processing

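No paired analysis was possible because the columns carry no replicate numbers. The cytoplasmic DVL3 intron did not pass in any alternative run (adjusted p from 0.154 to 0.862), and it could not be tested in events averaging 50 reads or more. Of the 3 cytoplasmic exon calls, all held in events averaging 10 reads or more and with the trend from events with 10 reads of the rarer form. The count was 1 in events averaging 50 reads or more, and 1 with limma on log2 odds and a pseudocount of 1. It was 0 with limma at a pseudocount of 0.5, 0 with the event's own dispersion and 0 with moderation over all events, where 16, 3 and 4 of the 66 events had an unadjusted p under 0.05. With moderation over all events the estimated prior degrees of freedom for SE events were 2.15. Leaving out 1 library gave 0 to 2 calls. In the cytoplasmic SE table as a whole, 225 events passed, against 0 with moderation over all events, 0 with own dispersion, 0 with limma at a pseudocount of 0.5 and 330 with the rarer-form trend. Of the cytoplasmic RI events 46 passed, against 0 to 53 in the alternatives. Cytoplasmic abundance called 2 genes, and 1 to 3 when 1 library was left out. Counting reads without division by length left all 7 whole-cell main introns without overlap, at differences of -0.10 for CAPRIN2, 0.49 for RPGR, 0.27 for SMYD2 and -0.082 for SUPT7L, with -0.37 for PODXL and -0.30 for DVL3, so the order of the introns by size changed. Moderation over all events was the form first set out, and the trend of the main test replaced it after a first fit of the data. The alternative without events that hold a retained intron was chosen after seeing the data, as were, for exons, the minimum of 50 reads, own dispersion and the pseudocount of 1.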
